A study of Homo sapiens with 15 samples.

Results

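A row of 5 nuclear copies of mitochondrial genes lies near the start of human chromosome 1, and these copies were followed through the RNA-seq libraries of C4-2B cells. The members are MTND2P28, MTCO1P12, MTCO2P12, MTATP6P1 and MTCO3P12, which makes 5 of the 58302 genes in the count tables. They were chosen by their symbols and position with measured counts of these libraries already known, so their levels, their ratios to the parent genes and their order between libraries are descriptions and carry no test. C4-2B, a bone-metastatic derivative of the prostate cancer line LNCaP, is an established cell line, here labelled wild type and grown in RPMI medium with serum, and the labels name no treatment for it. RNA-seq was labelled for 5 groups of 3 libraries, and the 3 C4-2B libraries were used here. The groups DKD_scr, DKD_siPax5, ER_scr and ER_siPax5 were not analysed here, so no comparison between cell lines or siRNAs was made. The labels do not say whether the 3 libraries came from separate cultures, and the spread between them may be technical.

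Mitochondria carry a small circular genome that encodes core subunits of the respiratory chain and the RNAs needed to translate them. In the course of evolution, pieces of this genome have been copied into nuclear chromosomes, where they are known as nuclear mitochondrial sequences. A mitochondrial gene read in the nucleus meets a different genetic code, since the codon TGA stands for tryptophan in mitochondria and for a stop in the nucleus. These copies are annotated as pseudogenes. An RNA-seq read from a mitochondrial transcript can match such a copy as well as, or better than, the gene it came from, and a count on a copy does not by itself show where the RNA was made. In bulk RNA, moreover, fewer cells with an RNA and less of that RNA per cell cannot be told apart.

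The libraries held 44992971, 49569026 and 46232076 counts in genes, with 32271 to 32732 genes having at least 1 count. Genes of the mitochondrial genome took 2.90% ± 0.187 of the counts (SD, n = 3), from 2.71% in replicate 1 to 3.09% in replicate 3. TPM is the count per base of gene length scaled to the same sum in every library, and the single gene RN7SL2, an RNA of the signal recognition particle, took 18.9% to 20.3% of it. The labelled cell type was checked on marker genes. All 7 luminal prostate markers lay between 197 and 1988 TPM on average, whereas the 3 basal markers lay between 0 and 0.865 TPM and the 4 neuroendocrine markers between 0.0753 and 1.38 TPM.

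The 5 copies form part of 1 continuous insertion. An alignment of chr1:629084-634924 (GRCh38, plus strand) to bases 3914 to 9755 of the mitochondrial genome had 5843 columns, of which 5758 were identical, an identity of 98.5% with 84 differences. The order of the copies along the chromosome is that of their parent genes. MTND2P28 (ENSG00000225630) occupies chr1:629640-630683, MTCO1P12 (ENSG00000237973) chr1:631074-632616 and MTCO2P12 (ENSG00000229344) chr1:632757-633438. MTATP6P1 (ENSG00000248527) follows at chr1:633696-634376 and MTCO3P12 (ENSG00000198744) at chr1:634376-634922. Each is annotated as an unprocessed pseudogene of 1 exon on the plus strand, and MTATP6P1 and MTCO3P12 share 1 base. Coordinates of 45 of the 45 genes compared, 37 on the mitochondrial genome and 8 in the chromosome 1 stretch, were the same in the deposited tables and in GENCODE release 44.

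Sequence was compared first, because it does not depend on the counts. Over the 4497 bases of the 5 copies there were 71 differences from the mitochondrial reference, an identity of 98.4%. Of these, 64 were transitions, 5 were transversions and 2 were gaps. At 37 the mitochondrial reference held C and the copy T, or the reference G and the copy A, on the strand shown. Which of the 2 bases is the older was not tested. Differences at substituted bases fell 11 times on the first, 4 times on the second and 54 times on the third position of the parent's codons. The copies thus differ from the genes mainly at the codon position where a base change most often leaves the amino acid as it is.

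MTND2P28 is the copy of MT-ND2 (ENSG00000198763, mitochondrial bases 4470 to 5511), a subunit of complex I, which passes electrons from NADH into the chain. It covers the whole gene, with 17 differences, all transitions, and its longest run identical to the mitochondrial genome is 266 bases. Read in the mitochondrial code it holds 0 internal stop codons, and read in the standard code it holds 10, as many as MT-ND2 itself. MTCO1P12 is the copy of MT-CO1 (ENSG00000198804, bases 5904 to 7445), the catalytic subunit of cytochrome c oxidase, or complex IV. It has 21 differences and a longest identical run of 245 bases. One extra base at its position 787 shifts the frame, and in the mitochondrial code it holds 20 internal stop codons, the first of them at codon 266.

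MTCO2P12 is the copy of MT-CO2 (ENSG00000198712, bases 7586 to 8269), the subunit of complex IV that takes electrons from cytochrome c. With 13 differences it had the lowest identity of the 5 copies, at 98.0%, and the shortest longest run, at 108 bases. It lacks 2 bases of the gene, after which the mitochondrial code gives 2 internal stop codons, the first at codon 211. MTATP6P1 is the copy of MT-ATP6 (ENSG00000198899, bases 8527 to 9207), a subunit of the proton channel of ATP synthase. It is as long as the gene, with 681 bases, and carries 10 differences and 0 internal stop codons in the mitochondrial code. MTCO3P12 is the copy of MT-CO3 (ENSG00000198938, bases 9207 to 9990), the third of the mitochondrially encoded subunits of complex IV. The insertion ends within it, so that it covers 69.8% of the gene and lacks 237 bases. Its 547 bases carry 10 differences, and it too holds 0 internal stop codons in the mitochondrial code.

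**Figure D1:**
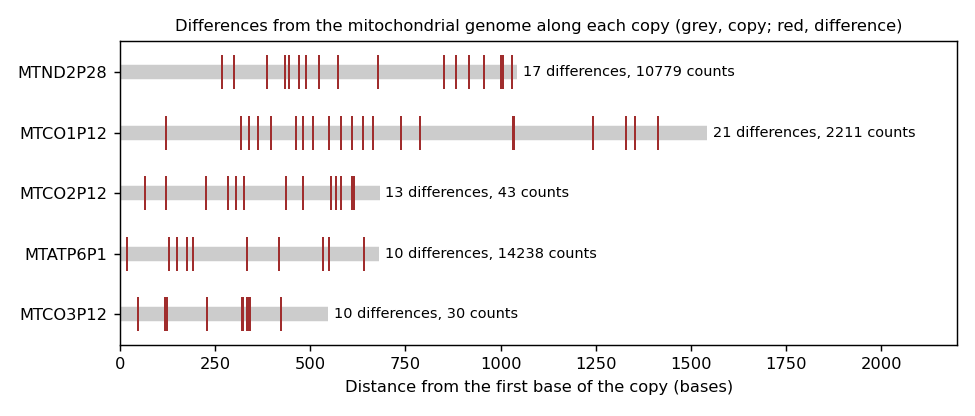
Differences from the mitochondrial reference along each of the 5 copies. The x axis is the distance in bases from the first base of the copy, grey bars are the copies to scale, red ticks are differences, and the text gives the differences and the counts summed over the 3 libraries. MTATP6P1 and MTCO3P12 carry 10 differences each, beside 14238 and 30 counts.

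What separates a copy from its parent in a short read is a handful of single bases. To show this, 101 bases are given for each pair around a difference that stands alone in as many 75-base windows of the copy as any other. Where 2 differences tied, as in MTATP6P1, MTCO1P12 and MTCO3P12, the one nearer the start of the copy was taken. The chromosome 1 copy is given first and the mitochondrial gene second, both on the plus strand of GRCh38, read 5′ to 3′ in lower case, with the differing base in capitals. Substitutions are written with the mitochondrial base first, then its position on the mitochondrial genome, then the base of the copy. For MTATP6P1 the difference is A8860G, and chr1:633979-634079 stands over mitochondrial bases 8810 to 8910.
MTATP6P1: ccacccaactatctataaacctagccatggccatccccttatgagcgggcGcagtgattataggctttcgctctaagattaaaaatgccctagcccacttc
MT-ATP6: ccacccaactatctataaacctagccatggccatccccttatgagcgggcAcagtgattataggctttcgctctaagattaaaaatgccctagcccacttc
For MTND2P28 the difference is G5147A, and chr1:630267-630367 stands over mitochondrial bases 5097 to 5197.
MTND2P28: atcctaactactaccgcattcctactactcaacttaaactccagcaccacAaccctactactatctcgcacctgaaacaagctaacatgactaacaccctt
MT-ND2: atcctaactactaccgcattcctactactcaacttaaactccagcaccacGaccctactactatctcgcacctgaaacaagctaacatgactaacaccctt
For MTCO1P12 it is G6023A, and chr1:631143-631243 stands over mitochondrial bases 5973 to 6073.
MTCO1P12: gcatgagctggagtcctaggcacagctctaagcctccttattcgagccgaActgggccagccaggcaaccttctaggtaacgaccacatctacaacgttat
MT-CO1: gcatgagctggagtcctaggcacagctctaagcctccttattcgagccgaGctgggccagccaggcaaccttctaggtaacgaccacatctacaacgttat
For MTCO2P12 it is C7810T, and chr1:632931-633031 stands over mitochondrial bases 7760 to 7860.
MTCO2P12: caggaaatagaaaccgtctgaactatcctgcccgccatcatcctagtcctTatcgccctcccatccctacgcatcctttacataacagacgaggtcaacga
MT-CO2: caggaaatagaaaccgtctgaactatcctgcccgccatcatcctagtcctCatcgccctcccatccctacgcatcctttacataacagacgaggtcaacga
For MTCO3P12 it is A9434G, and chr1:634553-634653 stands over mitochondrial bases 9384 to 9484.
MTCO3P12: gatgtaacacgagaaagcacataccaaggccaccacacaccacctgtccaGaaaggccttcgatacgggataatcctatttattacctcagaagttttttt
MT-CO3: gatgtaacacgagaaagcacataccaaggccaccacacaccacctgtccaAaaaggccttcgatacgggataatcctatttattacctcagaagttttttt

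A further pair from MTND2P28, at chr1:629889-629989 and mitochondrial bases 4719 to 4819, is shown because its middle base is A4769G.
MTND2P28: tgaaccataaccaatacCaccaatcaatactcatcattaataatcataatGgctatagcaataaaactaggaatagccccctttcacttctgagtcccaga
MT-ND2: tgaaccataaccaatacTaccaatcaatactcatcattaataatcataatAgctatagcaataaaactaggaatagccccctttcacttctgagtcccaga
As background, the mitochondrial reference sequence comes from 1 individual and carries bases that are rare among people at a few positions, A4769G and A8860G among them. At both, the base common in human mitochondria is the one that the chromosome 1 copy holds. A8860G was the sole difference in 75 of the 75-base windows of MTATP6P1, the highest number a single difference can reach and as many as C8943T in the same copy, and A4769G in 33 windows of MTND2P28. Which base the mitochondria of C4-2B carry at these positions was not measured here, and its part in the counts was not tested.

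The number of places at which a single read, taken without its mate, could land on a copy and nowhere else was then counted. A window of 75 bases was used since the read length is not given in the sources used here. Windows were compared with 194 sequences of the genome, the mitochondrial genome among them, on both strands. In MTND2P28, 333 of 970 windows (34.3%) occurred identically on the mitochondrial genome, and 637 (65.7%) occurred nowhere else. In MTCO1P12, 538 of 1469 windows (36.6%) were identical there and 931 (63.4%) were found nowhere else. These 2 longer copies had the highest shares of windows that cannot be told from the gene. In MTCO2P12, 64 of 608 windows (10.5%) were identical on the mitochondrial genome, 98 occurred elsewhere in the nuclear genome and 446 (73.4%) occurred nowhere else. In MTATP6P1, 170 of 607 windows (28.0%) were identical there, 9 occurred elsewhere in the nucleus and 428 (70.5%) nowhere else. In MTCO3P12, 104 of 473 windows (21.99%) were identical there and 369 (78.0%) nowhere else. Every copy therefore had at least 369 windows of its own, and its other windows matched the mitochondrial genome or, in MTCO2P12 and MTATP6P1, also other nuclear sequence. Windows that differed from the mitochondrial genome at 1 base alone numbered 287, 423, 285, 278 and 204 in the order of the copies on the chromosome.

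The counts were far less even than the sequences. MTATP6P1 had 4214, 5113 and 4911 counts in replicates 1 to 3, and MTND2P28 had 3132, 3832 and 3815. Both had at least 3132 counts in every library. MTCO1P12 had 765, 736 and 710 counts. MTCO2P12 had 14, 19 and 10 counts, and MTCO3P12 had 13, 12 and 5. The latter 2 copies were close to the limit of detection in each library, although they lie 257 bases before and directly after MTATP6P1. Exact Poisson intervals at 95% for the summed counts ran from 14005 to 14474 for MTATP6P1, from 10577 to 10984 for MTND2P28 and from 2120 to 2305 for MTCO1P12. For MTCO2P12 the interval of the sum of 43 ran from 31.1 to 57.9, and for MTCO3P12 that of the sum of 30 ran from 20.2 to 42.8. These intervals cover counting error only and are too narrow, because both mates of a pair could add a count and PCR duplicates carried no molecular identifier.

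Per length, MTATP6P1 stood highest, at 462 ± 31.7 TPM (SD, n = 3), the rank 172 among the 58302 genes and 2 among the 15038 pseudogenes of the tables. MTND2P28 followed at 228 ± 20.3 TPM, rank 461 of all genes and 6 among pseudogenes. MTCO1P12 was at 31.8 ± 2.19 TPM, rank 4821. These 3 levels were apart from each other by more than their spread, and no library of one overlapped the libraries of the next. MTCO2P12 was at 1.39 ± 0.380 TPM and MTCO3P12 at 1.21 ± 0.530 TPM, and their libraries overlapped, so that their order was not resolved. By library, MTCO2P12 had 1.42, 1.75 and 0.993 TPM and MTCO3P12 had 1.64, 1.38 and 0.619 TPM. The highest and the lowest copy differed 381-fold. The 5 copies together reached 725 ± 49.5 TPM.

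**Figure D2:**
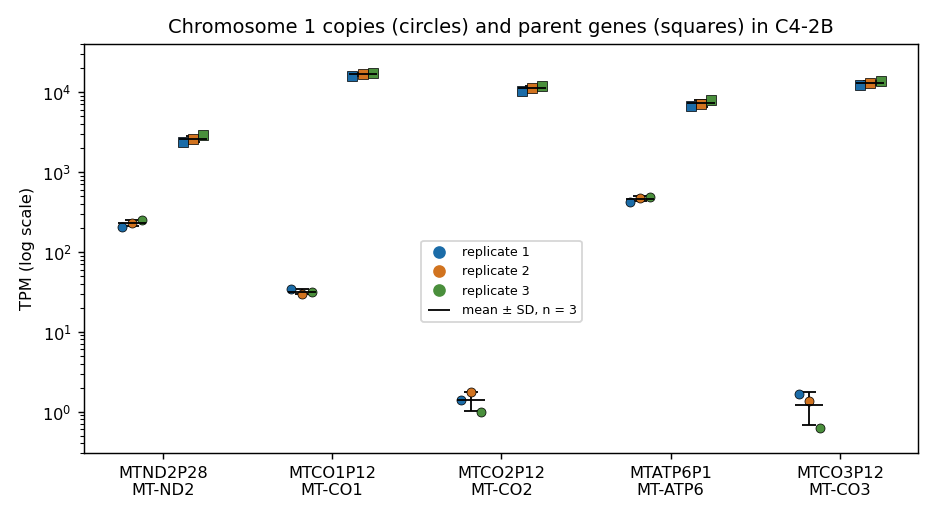
TPM on a log scale (y axis) of each copy (circles) and its parent gene on the mitochondrial genome (squares) in the 3 C4-2B libraries, one colour per replicate, with bars for the mean ± SD (n = 3). Copies run from 1.21 to 462 TPM on average, while the parents run from 2612 to 16630 TPM.

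The parent genes were spread much less. MT-CO1 was at 16630 ± 832 TPM, MT-CO3 at 12922 ± 762 TPM and MT-CO2 at 11227 ± 757 TPM (SD, n = 3). MT-ATP6 was at 7267 ± 700 TPM and MT-ND2 at 2612 ± 241 TPM. The parents thus lay within 6.37-fold of each other, and the parents of the 3 copies with the fewest counts were the 3 with the highest levels. Across all 13 protein-coding genes of the mitochondrial genome, levels ran from 1639 ± 161 TPM for MT-ND3 to that of MT-CO1. The ribosomal RNA genes, whose transcripts the library preparation depletes, were at 144 ± 31.5 TPM (MT-RNR1) and 863 ± 120 TPM (MT-RNR2).

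To compare each copy with its parent, the ratio of their TPM was taken within each library. For MTND2P28 the ratio to MT-ND2 was 8.63%, 8.99% and 8.61% in replicates 1 to 3, or 8.74% ± 0.215 (SD, n = 3). For MTATP6P1 the ratio to MT-ATP6 was 6.46%, 6.56% and 6.10%, or 6.37% ± 0.242. In both pairs the highest ratio was within 1.08-fold of the lowest, a smaller spread than that of either level. For MTCO1P12 the ratio to MT-CO1 was 0.217%, 0.179% and 0.179%, or 0.192% ± 0.0220, with replicate 1 above the other libraries. For MTCO2P12 it was 0.0136%, 0.0154% and 0.00832%, or 0.0125% ± 0.00369. For MTCO3P12 it was 0.0135%, 0.0106% and 0.00454%, or 0.00955% ± 0.00458. The ratios of these last 2 copies overlapped between libraries, and replicate 3 was the lowest in both. From MTND2P28 to MTCO3P12 the mean ratio differed 915-fold, so that the copies were not at a common share of their parents.

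**Figure D3:**
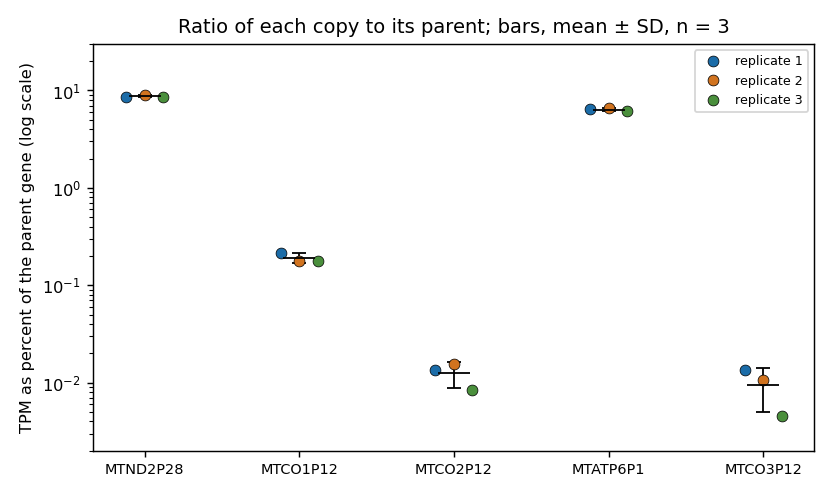
TPM of each copy as a percent of the TPM of its parent gene (y axis, log scale) in the 3 C4-2B libraries, with bars for the mean ± SD (n = 3). MTND2P28 and MTATP6P1 lie at 8.74% and 6.37%, MTCO1P12 at 0.192%, and MTCO2P12 and MTCO3P12 near 0.01%.

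The counting error of these ratios was set beside the spread between libraries. The share of MTATP6P1 in the counts of MTATP6P1 plus MT-ATP6 had an exact 95% binomial interval (Clopper-Pearson) of 5.89% to 6.25% in replicate 1, 5.995% to 6.32% in replicate 2 and 5.59% to 5.91% in replicate 3, so that replicates 2 and 3 did not overlap. The share of MTND2P28 ran from 7.69% to 8.23%, from 8.02% to 8.52% and from 7.70% to 8.19%, and all 3 intervals overlapped. For MTCO1P12 the interval of replicate 1, 0.202% to 0.233%, lay above those of replicate 2, 0.166% to 0.192%, and replicate 3, 0.166% to 0.192%. When counts were halved to allow for mates counted separately, the intervals overlapped in every pair of libraries for every copy. The share of MTCO3P12 could not be separated between libraries, with intervals from 0.00503% to 0.0161% in replicate 1 and from 0.00103% to 0.00739% in replicate 3. MTCO2P12 likewise overlapped between all libraries.

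Whether a copy and its parent moved in the same direction from library to library was read from CPM, the count relative to all counts of the library. All 5 parents were lowest in replicate 1 and highest in replicate 3, as was each of the other protein-coding genes of the mitochondrial genome, and MT-ND2 and MT-ATP6 were 18.8% and 20.1% higher in replicate 3 than in replicate 1. MTND2P28 had 69.6, 77.3 and 82.5 CPM and was 18.5% higher in replicate 3. MTATP6P1 had 93.7, 103 and 106 CPM and was 13.4% higher. These 2 of the 5 copies had the order of their parents. MTCO1P12, with 17.0, 14.8 and 15.4 CPM, was highest in replicate 1 while MT-CO1 was lowest there. MTCO2P12 was highest in replicate 2 and MTCO3P12 in replicate 1, and both were lowest in replicate 3, where their parents were highest. The order of MTCO2P12 and MTCO3P12 rests on 5 to 19 counts a library and lies within counting error. Exact Poisson intervals also overlapped between replicates 2 and 3 of MTATP6P1, from 459 to 485 and from 475 to 502 TPM, so that this step of its order was not resolved. For MTCO1P12 they overlapped between all libraries, from 31.8 to 36.7, from 27.8 to 32.2 and from 28.9 to 33.5 TPM, and for MTND2P28 between none. For MTND2P28, however, the interval of replicate 2 ended at 238.0 TPM and that of replicate 3 began at 239.6 TPM. With mates counted separately such intervals are too narrow, and they were not computed with counts halved, so this step is uncertain too. With 3 libraries there are 6 possible orders, and the shared order is a description of these libraries. The number of copies with the order of their parent was 2 under each scaling tried, namely CPM, TMM, DESeq2 size factors and the total without mitochondrial genes and members, and was 2 or 3 when 1 library was left out. It was 3 without replicate 1, where MTCO1P12 joined, and 3 without replicate 3, where MTCO2P12 joined.

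**Figure D4:**
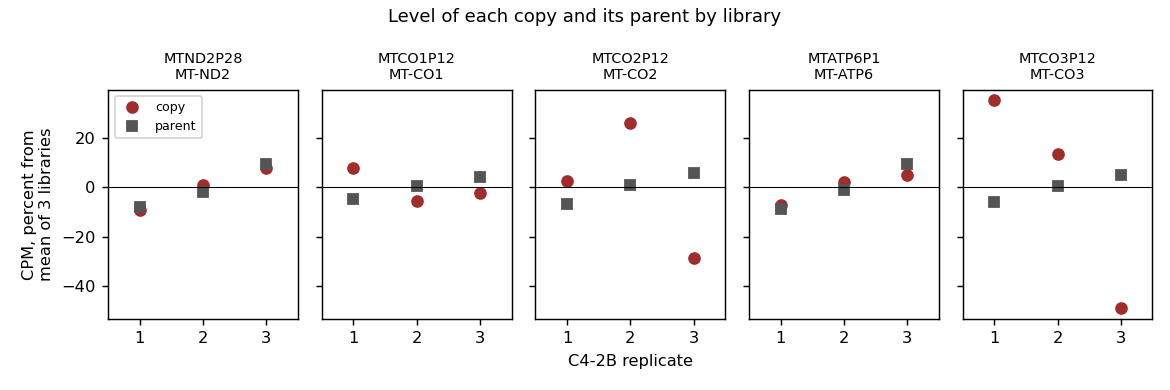
CPM of each copy (red circles) and its parent gene (grey squares) in the 3 C4-2B libraries (x axis), as percent difference from the mean of the 3 libraries (y axis). All 5 parents are lowest in replicate 1 and highest in replicate 3, and MTND2P28 and MTATP6P1 alone among the copies share that order.

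Counts were next related to the windows that occur on the copy alone. The windows were taken over the whole copy, including bases under exons of other genes, where reads were not counted. Such bases were unevenly spread, lying mostly in MTCO1P12, MTCO2P12 and MTATP6P1. Per 100 such windows of 75 bases, MTATP6P1 had 23.6 ± 1.53 CPM (SD, n = 3) and MTND2P28 had 12.01 ± 1.02 CPM. MTCO1P12 had 1.69 ± 0.121 CPM, MTCO2P12 had 0.0681 ± 0.0188 CPM and MTCO3P12 had 0.0577 ± 0.0254 CPM. The numbers of such windows differed 2.52-fold between the copies, and the counts per window differed 409-fold. These windows were counted against the reference, not against the mitochondria of C4-2B. In 75 windows of MTATP6P1 the sole difference is A8860G and in 33 of MTND2P28 it is A4769G, where the bases of C4-2B were not known. MTATP6P1 stood above MTND2P28, and MTND2P28 above MTCO1P12, with windows of 50, 75, 100 and 150 bases, and both other copies were lower, with their own order not resolved. The order of the levels was not that of the numbers of windows, of which MTCO1P12 had the most, and what separates the counts of the copies was not tested.

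Other genes in the stretch had few counts. MTND1P23, a copy of part of MT-ND1 at chr1:629062-629433, had 2, 4 and 6 counts, and MTATP8P1 at chr1:633535-633741, which overlaps MTATP6P1, had 0, 1 and 9. The long gene ENSG00000230021, annotated on the minus strand at chr1:586071-827796 as a transcribed processed pseudogene, had 0, 4 and 12 counts. Its exons overlap MTCO1P12 and MTCO2P12, and since no strand was set in counting, reads in the overlap could not be assigned to either gene and were not counted. A miRNA gene, ENSG00000278791, lies within MTCO1P12 on the minus strand and had 0 counts in each library. Outside these overlaps, 1380 of the 1543 bases of MTCO1P12, 596 of the 682 of MTCO2P12 and 634 of the 681 of MTATP6P1 were open to counting, and over that length the ratio of MTCO1P12 to its parent was 0.214%. No gene of the tables other than these 9 had an exon within 10000 bases of the members, and apart from MTND2P28, MTCO1P12 and MTATP6P1 none of the 9 had over 19 counts in a library.

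Reads aligned to both a copy and its parent were not counted for either, which also touches the parents. Of the 75-base windows of MT-CO1, 36.6% occurred identically in the chromosome 1 stretch, as did 34.4% for MT-ND2, 28.0% for MT-ATP6, 14.9% for MT-CO3 and 10.5% for MT-CO2. The parents' counts are lower limits by an amount that depends on the length of the reads and on how pairs were aligned, and this was not measured. No 75-base window of MT-ND3, MT-ND4L, MT-ND4, MT-ND5, MT-ND6 or MT-CYB, which lie outside the insertion, occurred in the stretch. Elsewhere in the nuclear genome, however, 7.10% of the windows of MT-ND6 and 0.173% of those of MT-ND5 occurred identically. The same held for 28.4% of the windows of MT-RNR1 and 3.37% of those of MT-RNR2.

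As a share of all mitochondrial-like counts, that is those of the 5 copies plus the 13 protein-coding and 2 ribosomal RNA genes of the mitochondrial genome, the copies took 0.667%, 0.676% and 0.662%, or 0.668% ± 0.00676 (SD, n = 3). Against all counts in genes the copies took 0.0181%, 0.0196% and 0.0204%, or 0.0194% ± 0.00119, a larger spread relative to the mean. Within the 5 copies, MTND2P28 and MTATP6P1 together took 90.3%, 92.1% and 92.3% of the counts, or 91.6% ± 1.13.

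The copies were then set beside the 399 other genes named as nuclear copies of mitochondrial genes, by symbols made of MT, the gene, P and a number. Among the 399 are MTND1P23 and MTATP8P1 of the same chromosome 1 stretch, with 12 and 10 counts summed over the libraries. Of these, 256 had 0 counts in all 3 libraries, 143 had at least 1, and 8 had at least 100 summed over the libraries. The most counted, MTND4P20, had 308. The 5 members held 88.7% ± 0.214 of the counts on all copies so named (SD, n = 3). The 399 others together had 1033, 1205 and 1224 counts. Nuclear copies without a symbol of that form were not included, so this is not a share of all nuclear copies. By TPM the highest of the others were MTND5P15 (chr3:177010719-177011067, minus strand) at 8.91 ± 1.89 TPM, MTND4P20 (chr10:94940253-94941121, minus strand) at 7.86 ± 1.69 TPM and MTND3P25 (chr5:134928393-134928527, minus strand) at 6.46 ± 2.87 TPM. MTATP6P1, MTND2P28 and MTCO1P12 stood above all of them in each library, and MTCO2P12 and MTCO3P12 stood below all 3 by their means. Among copies of the same parent the pattern was alike for MT-ATP6, where the 27 other copies held 144 counts in all, and for MT-ND2, where 33 others held 273. The 47 other copies of MT-CO1 held 323 counts, again fewer than the chromosome 1 copy. For MT-CO2 the 29 others held 124 counts in all, above the sum on the chromosome 1 copy, but the most counted of them, MTCO2P11, had 32 against the 43 of MTCO2P12. For MT-CO3 the 36 others held 209 counts, and MTCO3P29 alone, with 46, had more than the 30 of MTCO3P12.

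To place the levels, the protein-coding gene off the mitochondrial genome with the nearest log2(TPM + 1) in the 3 libraries was looked up for each copy among 19695 genes. MTATP6P1 lay nearest to RPL41, a protein of the large ribosomal subunit, at 452 ± 9.15 TPM (SD, n = 3), with a largest difference of 0.084 on the log2 scale in any library. MTND2P28 lay nearest to CAPZA1, a subunit of the actin capping protein, at 225 ± 8.45 TPM, with a largest difference of 0.094. MTCO1P12 lay nearest to TAF12, a subunit of the general transcription factor TFIID, at 31.7 ± 2.15 TPM. MTCO2P12 and MTCO3P12 lay nearest to TDRD1 at 1.34 ± 0.242 TPM and to CCDC184 at 1.18 ± 0.386 TPM. For the 3 latter copies the largest differences were 0.0072, 0.087 and 0.11.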

How the data were processed

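Total RNA of C4-2B cells was depleted of ribosomal RNA, made into directional libraries and sequenced as read pairs, per the labels and the methods of the study. The reads were trimmed with Trim Galore and aligned with STAR 2.7.0f, per the submitters' processing notes. The authors deposited raw counts for each gene, taken with featureCounts of Subread 1.6.3 over the Ensembl release 90 annotation on GRCh38, and another deposited value per gene is its exon length. Per the file headers, only the annotation, the output and 3 threads were set: reads on either strand were counted, mates were counted separately, and reads aligned to several places or lying over exons of more than 1 gene were not counted.

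The members and gene lists were chosen with earlier results of these data known. Named genes are the members, their parents and genes within 10000 bases. The 3 other copies, by symbol, with the highest TPM and the protein-coding gene nearest in level to each member were also named. Groups and replicate numbers came from the sample titles. Symbols were matched for 57532 of the 58302 identifiers, and gene types came from GENCODE release 44. CPM and TPM were computed from counts and lengths over all genes, with means and SDs over 3 libraries, and a pseudocount of 1 was used for log2 values. No test was run. Copies were aligned to the mitochondrial genome of GRCh38, and windows of 75 bases were searched for exact matches on both strands in 194 sequences, without alternate loci. Alignment and intervals were checked on simulated data. Depth was 44992971 to 49569026 counts a library, and intervals are exact at 95%, for counting error only. Alternatives were other window lengths, TPM sums, gene lengths and library scalings, and leaving out each library. Python 3.11.15, numpy 2.4.6, scipy 1.17.1, Biopython 1.88, R 4.3.3, edgeR 4.0.16 (TMM factors) and DESeq2 1.42.0 (size factors) were used. The other labelled groups were not analysed here.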

Additional observations from a re-analysis of the deposited data

How the results depend on the processing

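No paired analysis was possible because files of 1 group alone were used. Of 41 alternative values for the summed level, the ratios and the share, 37 moved by less than the spread between libraries (SD) and 4 moved more. This tally is no measure of stability. Leaving out 1 of 3 libraries cannot move a mean by as much as the SD, and levels, ratios and shares cannot change sign. The ratio of MTATP6P1 over the length outside other genes was fixed too, since copy and parent both keep 634 of 681 bases. The number of copies with the order of their parent, which has no spread between libraries, was 2 under the scalings tried and without replicate 2, and 3 without replicate 1 or replicate 3. The summed level of the copies was 725 TPM and became 901 TPM with RN7SL2 left out of the TPM sum. The ratio of MTCO1P12 to its parent was 0.192% and became 0.214% over the length outside other genes. The share of mitochondrial-like counts was 0.668%, 0.680% against the 13 protein-coding genes and 1.17% against the 5 parents, by a smaller denominator. Of all windows of the copies, 29.3% matched the mitochondrial genome at 75 bases, 44.1% at 50, 19.02% at 100 and 9.12% at 150, as longer windows hold more differences. Leaving out 1 library moved the summed level between 703 and 752 TPM and the ratio of MTCO3P12 between 0.00756% and 0.0121%, the smaller value without replicate 1, the larger without replicate 3, and the ratio of counts without a length was 0.00666% for MTCO3P12, which lacks part of its parent. For the levels of the single copies, 25 of 30 alternatives moved by less than the spread, a tally that again includes leaving out each library. It also depends on the width of the spread, which was 27.4% of the mean for MTCO2P12 and 43.7% for MTCO3P12. Leaving RN7SL2 out of the TPM sum stayed within the spread for these 2 copies and went beyond it for the others. Depth limits MTCO2P12 and MTCO3P12, with at most 19 counts in a library. The read length and the bases carried by C4-2B mitochondria were not known, and the part of reads from mitochondrial transcripts in the counts of the copies was not tested.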
